A study of Arabidopsis thaliana with 6 samples.

Results

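The CIN-type TCP genes are a subgroup of the plant TCP transcription factor family. The 8 members were taken by locus: TCP2 (AT4G18390), TCP3 (AT1G53230), TCP4 (AT3G15030), TCP5 (AT5G60970), TCP10 (AT2G31070), TCP13 (AT3G02150), TCP17 (AT5G08070) and TCP24 (AT1G30210), out of 32627 genes with values on the arrays. All 8 had at least 1 feature with values. Transcripts were measured by 1-colour microarrays in Arabidopsis thaliana inflorescences holding flower buds younger than stage 10. Every plant, control or treated, was in the Landsberg erecta (Ler) background and carried 35S::SUP-GR. In this transgene the viral 35S promoter, active in most plant tissues, drives the zinc-finger protein SUPERMAN (SUP) joined to the glucocorticoid receptor, and such fusions generally stay out of the nucleus until dexamethasone is given. The Mock group (3 arrays) was dipped in ethanol and the DEX group (3 arrays) in 10 µM dexamethasone, both with a wetting agent, and tissue was taken 4 hours later. The labels describe DEX-treated plants as developing smaller organs. Dexamethasone-treated plants without the transgene were not analysed here, so any effect of the hormone itself is part of each difference.

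TCP proteins bind DNA through a basic helix-loop-helix domain of their own kind. CIN-type members, named after CINCINNATA of Antirrhinum, slow cell division and promote the passage to differentiation at the edges and tips of growing leaves and petals, so that organs stay flat and of limited size. TCP2, TCP3, TCP4, TCP10 and TCP24 carry a site for the microRNA miR319, which cuts their transcripts. TCP5, TCP13 and TCP17 lack that site and form a separate branch, whose loss enlarges petals in Arabidopsis. The comparison below asks whether any of these transcripts differed shortly after the SUP fusion was activated.

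The tissue and the arrays were checked first. The flower bud markers AP1, AP3, PI, AG, SEP3 and LFY were all well lit, with mean intensities from 254 to 1550, and their summed intensity was 4761 to 5078 on the Mock arrays and 3837 to 4070 on the DEX arrays, with no overlap. All 6 had differences below 0, from -0.82 to -0.10 on the log2 scale, and none passed the threshold used here (LFY had the lowest limma adjusted p, 0.251). SEP3, read by 2 features, was at -0.47 with the brighter feature but at 0.085 with the mean of both. LFY, at -0.82, did pass with a variance prior that follows intensity (limma adjusted p = 0.0155) and when genes dimmer than the median gene were left out (limma adjusted p = 0.0413). Those settings called 431 and 282 genes, against 17 in the main fit. LFY did not pass with 16 added to each intensity (limma adjusted p = 0.107). Nor did it with the replicate number as a block (limma adjusted p = 0.394) or any 1 array left out (limma adjusted p 0.287 to 0.449). The part of these markers in the results below was not tested. Among 5 markers of mature pollen, root hair and seed, the pollen gene VGD1 and the root hair gene COBL9 were lit (VGD1 at 218 to 523), while EXPA7, SESA1 and CRA1 stayed between 1.45 and 29.4. The summed intensity of these 5 was 488 to 785 on Mock and 377 to 593 on DEX arrays, which overlap. The SUP transcript itself stood at intensities of 415, 465 and 451 in Mock and 453, 500.1 and 466 in DEX. That is a difference of 0.09 on the log2 scale (SE 0.11, exact permutation p = 0.2), and the groups overlapped. Whether this feature reads the native gene, the transgene or both is not known, as the probe design is not given.

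None of the 8 CIN-type TCP genes passed the test of DEX against Mock. The threshold was an adjusted p of 0.05 over all genes with limma, which 17 of 32627 genes passed (0.0521%), 0.049% with DEX lower and 0.00306% with DEX higher. At rates this low a family of this size would usually hold no called gene. At an unadjusted p under 0.05 there was 1 member, against 10.4% of all genes. That member was TCP17, whose ratio of DEX to Mock intensity was 0.585. TCP5 had the most negative difference, but 1 array made most of it. TCP10 was the member with the highest difference, 0.28 on the log2 scale. The other 5 lay between -0.13 and 0.18. Of the 8 members, 4 had differences above 0, against 50.9% of all genes, and the median difference was 0.03, against 0.01 over all genes. These are bulk samples, in which fewer cells of a type and less RNA per cell cannot be told apart.

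**Figure D1:**
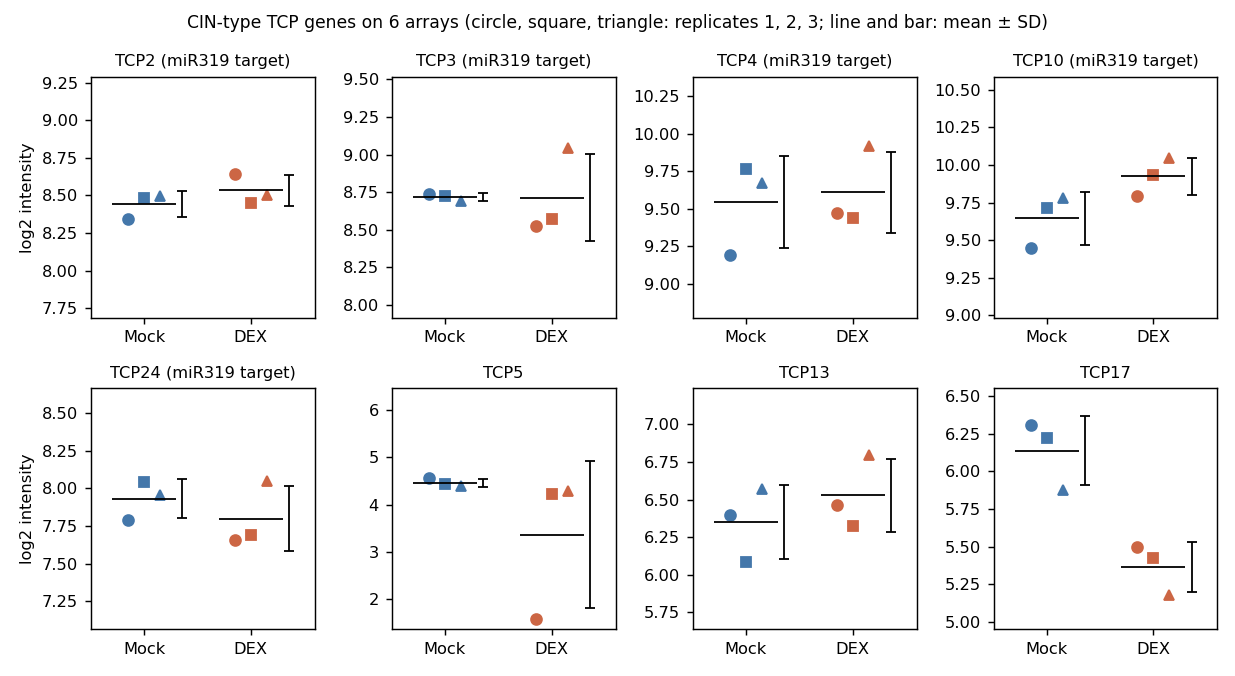
Log2 intensity of the 8 CIN-type TCP genes on each array, Mock in blue and DEX in orange, with each group's mean (line) and SD (bar, n = 3). TCP17 has all 3 DEX points below all 3 Mock points, and the low TCP5 mean in DEX rests on replicate 1; the vertical scales differ between panels.

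TCP17 belongs to the branch without a miR319 site. Its intensities were 79.5, 74.8 and 58.8 in Mock and 45.1, 42.9 and 36.1 in DEX. No DEX array reached the lowest Mock array, and the gap between the lowest Mock and the highest DEX array was wider than the range of the DEX group. Mean log2 intensities were 6.14 ± 0.23 for Mock and 5.37 ± 0.17 for DEX (SD, n = 3). DEX minus Mock was -0.77 (SE 0.17, 95% interval -1.19 to -0.36). The unadjusted limma p was 0.00407, which ranked 547 of 32627 genes, and the adjusted p was 0.240. With a variance prior that follows intensity the adjusted p was 0.133, and with 16 added to each intensity, which damps dim features, the difference was -0.60 (limma adjusted p = 0.107). TCP17 was thus lower on every DEX array, yet was not separated from the background of all genes.

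TCP5, of the same branch and known to restrain petal growth, was the dimmest of the 8. Its intensities were 23.7, 21.7 and 21.1 in Mock and 2.97, 18.8 and 19.5 in DEX. The DEX arrays were again all below the Mock arrays, but replicates 2 and 3 were only slightly lower and replicate 1 fell far outside the other 5. The difference was -1.11 (SE 0.76, 95% interval -3.00 to 0.79, limma adjusted p = 0.669). Without DEX replicate 1 it was -0.21, and with 16 added to each intensity it was -0.41. The SD of the log2 values was 0.09 in Mock and 1.55 in DEX.

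TCP13, the third gene of the branch and listed in RefSeq as PTF1, did not follow the other two. It stood at 84.4, 67.7 and 95.1 in Mock and at 88.1, 80.2 and 111 in DEX, and the groups overlapped. Its difference was 0.18 (SE 0.19, 95% interval -0.30 to 0.66). It was 0.043 without Mock replicate 2 or without DEX replicate 3, and 0.29 and 0.28 without Mock replicate 3 and DEX replicate 2. The 3 genes of this branch thus gave -1.11, -0.77 and 0.18; whether these responses differ from each other was not tested.

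Among the miR319 targets, TCP10 had the highest difference. Its intensities were 698, 839 and 878 in Mock and 889, 978 and 1056 in DEX. All DEX arrays were above all Mock arrays, though Mock replicate 3 and DEX replicate 1 nearly met. On the log2 scale TCP10 was at 9.65 ± 0.18 and 9.92 ± 0.12 (SD, n = 3), a difference of 0.28 (SE 0.14, 95% interval -0.07 to 0.63, limma adjusted p = 0.562), and 0.18 without Mock replicate 1. Groups that did not overlap were seen for 3 of the 8 members, TCP17 and TCP5 with DEX below and TCP10 with DEX above, against 17.9% of all genes (9.2% with DEX below and 8.74% with DEX above). Each of the 3 had an exact permutation p of 0.1, which is the smallest that 3 arrays against 3 allow.

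TCP4, which in leaves promotes the exit from division and activates jasmonate synthesis, was read by a pair of features. The brighter one stood at 585, 871 and 817 in Mock and at 710, 693 and 969 in DEX, with Mock replicate 1 low and DEX replicate 3 high. Its difference was 0.06 (SE 0.22, 95% interval -0.48 to 0.61). The dimmer feature stood at 362, 439 and 392 in Mock and 338, 365 and 411 in DEX, a difference of -0.10 (SE 0.13). The direction for TCP4 thus depended on the feature, and both differences were smaller than their errors.

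TCP3, a close relative of TCP4, stood at 427, 422 and 412 in Mock and at 368, 381 and 528 in DEX. The Mock arrays were nearly equal, and DEX replicates 1 and 2 lay below them while replicate 3 lay above. The difference was 0.00 (SE 0.17, 95% interval -0.42 to 0.41), and it was -0.17 without DEX replicate 3 and 0.093 without DEX replicate 1.

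TCP24, reported to act with the repressor ABAP1 on cell division, had the same shape. It stood at 221, 264 and 249 in Mock and at 202, 206 and 265 in DEX, with replicate 3 again the high DEX array. The difference was -0.13 (SE 0.15, 95% interval -0.51 to 0.25). It was -0.26 without DEX replicate 3 and -0.20 without Mock replicate 1, but -0.060, -0.076 and -0.074 without DEX replicate 1, DEX replicate 2 and Mock replicate 2.

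TCP2 varied least of the 8 by its brighter feature, though not by its second. Its brighter feature stood at 324, 359 and 361 in Mock and at 401, 350 and 363 in DEX, a difference of 0.09 (SE 0.11), or 0.042 without Mock replicate 1 and 0.036 without DEX replicate 1. The second TCP2 feature ran from 224 to 353 over the arrays and gave 0.10 (SE 0.20), with a residual SD of 0.25 on the log2 scale. The residual SD of the brighter feature was 0.09 on the log2 scale, below the median of 0.14 for genes brighter than the median gene. As ratios of DEX to Mock intensity, the 95% intervals were 0.878 to 1.29 for TCP2, 0.748 to 1.33 for TCP3, 0.717 to 1.53 for TCP4, 0.955 to 1.54 for TCP10 and 0.70 to 1.19 for TCP24. These intervals are for single genes, and changes inside them could not be seen with 3 arrays in each group.

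**Figure D2:**
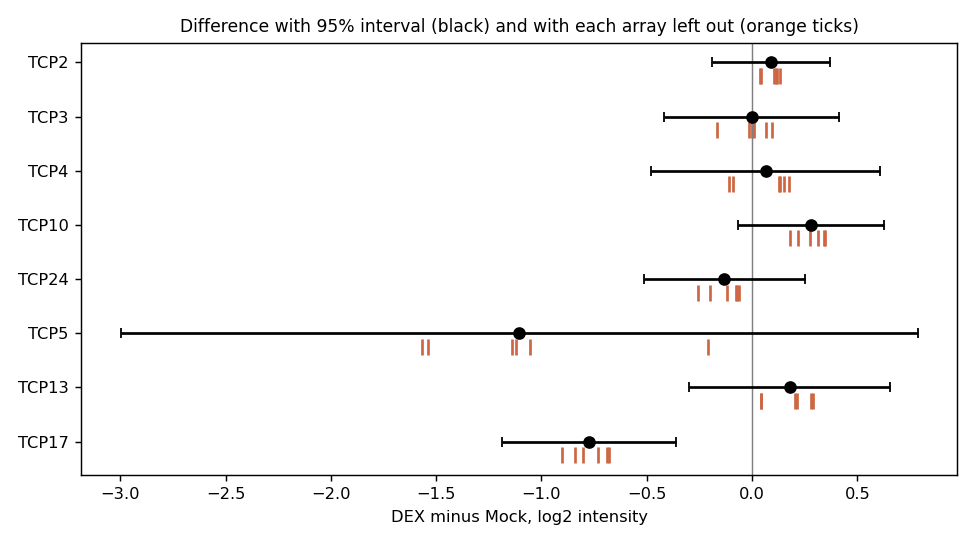
Difference of DEX minus Mock in log2 intensity for each gene (black point, bar for the 95% interval from limma, unadjusted), with the values when 1 of the 6 arrays was left out (orange ticks). Only the TCP17 interval, -1.19 to -0.36, excludes 0, and the TCP5 value moved to -0.21 without DEX replicate 1.

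The arrays differed for several members at once. DEX replicate 3 was the highest of the 6 arrays for 5 members, TCP3, TCP4, TCP10, TCP24 and TCP13, whereas it was the highest for 17.8% of all genes and 19.2% of genes brighter than the median gene. On that array TCP3 stood 0.33, TCP4 0.34, TCP13 0.36, TCP10 0.26 and TCP24 0.19 above the gene's own mean on the log2 scale. TCP17 went the other way there, at -0.58, its lowest value. The median deviation over all genes on that array was 0.01, the highest of the 6 arrays; its part in these values was not tested. With DEX replicate 3 left out, the median difference of the 8 members was -0.13, against 0.03 with all arrays. Mock replicate 1 was the lowest array for 3 members, TCP2, TCP4 and TCP10, and for 21% of all genes. DEX replicate 1 was the lowest for another 3, TCP3, TCP24 and TCP5, and for 16.6% of all genes.

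**Figure D3:**
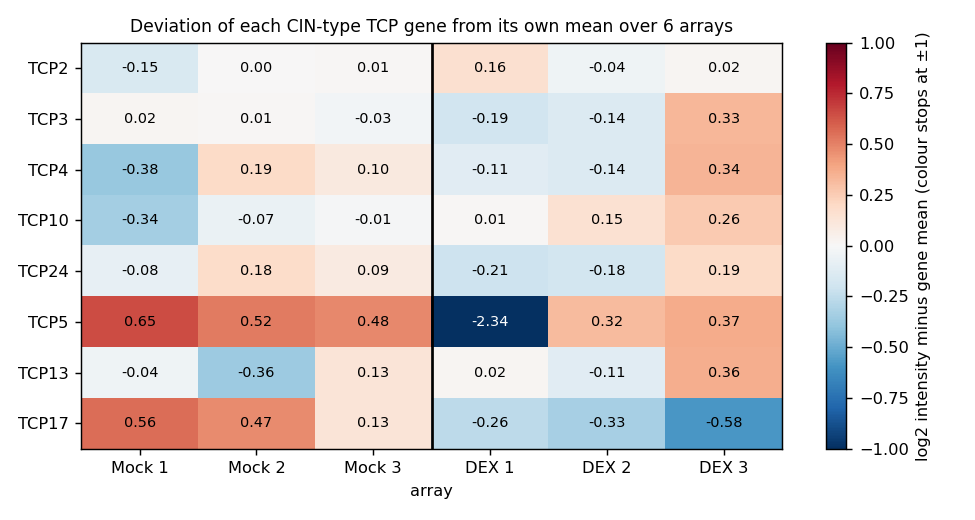
Log2 intensity of each gene on each array minus that gene's mean over the 6 arrays, with red above and blue below the mean. The values on DEX 3 are the highest of the row for 5 genes (0.19 to 0.36), the value for TCP17 there is -0.58, and the value of -2.34 for TCP5 on DEX 1 lies beyond the colour scale.

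The rest of the TCP family was measured on the same arrays. All 24 TCP genes had values, and none passed over all genes. Class I TCPs, which often act against the CIN type by promoting growth, had a median difference of -0.17 over 13 genes, against 0.01 over all genes. Of the 13, 10 were below 0, against 16018 of all 32627 genes. Whether the classes differ was not tested. The lowest p belonged to TCP21, a clock-associated factor also called CHE, which stood at 493, 480 and 528 in Mock and at 306, 314 and 315 in DEX. The groups were far apart for their spread, with a difference of -0.68 (SE 0.10, limma adjusted p = 0.121). With the prior that follows intensity TCP21 passed (limma adjusted p = 0.00323), as it did with 16 added to each intensity (limma adjusted p = 0.0213). Those settings called 1.32% and 0.625% of all genes, and none of the 8 CIN-type genes. TCP21 did not pass without the dimmest 25% of genes (limma adjusted p = 0.0514). Nor did it with the replicate number as a block (limma adjusted p = 0.323) or any 1 array left out (limma adjusted p 0.231 to 0.320), where 0 genes were called.

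TCP23 had a difference of -1.12 (SE 0.21), from mean intensities of 60.7 to 27.9, TCP20 one of -0.34 (SE 0.14) and TCP9 one of 0.45 (SE 0.13). The 3 members of the CYC/TB1 class were dim. TCP18, also called BRC1, was at -1.49 (SE 0.39) but only at 11.5 and 4.09 in mean intensity, and with 16 added it was at -0.44. With the mean of its 2 features TCP18 was at -0.82. TCP12 was at 1.03 (SE 0.48) and TCP1 at -0.12 (SE 0.17), or -0.58 with the mean of the 2 TCP1 features.

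**Figure D4:**
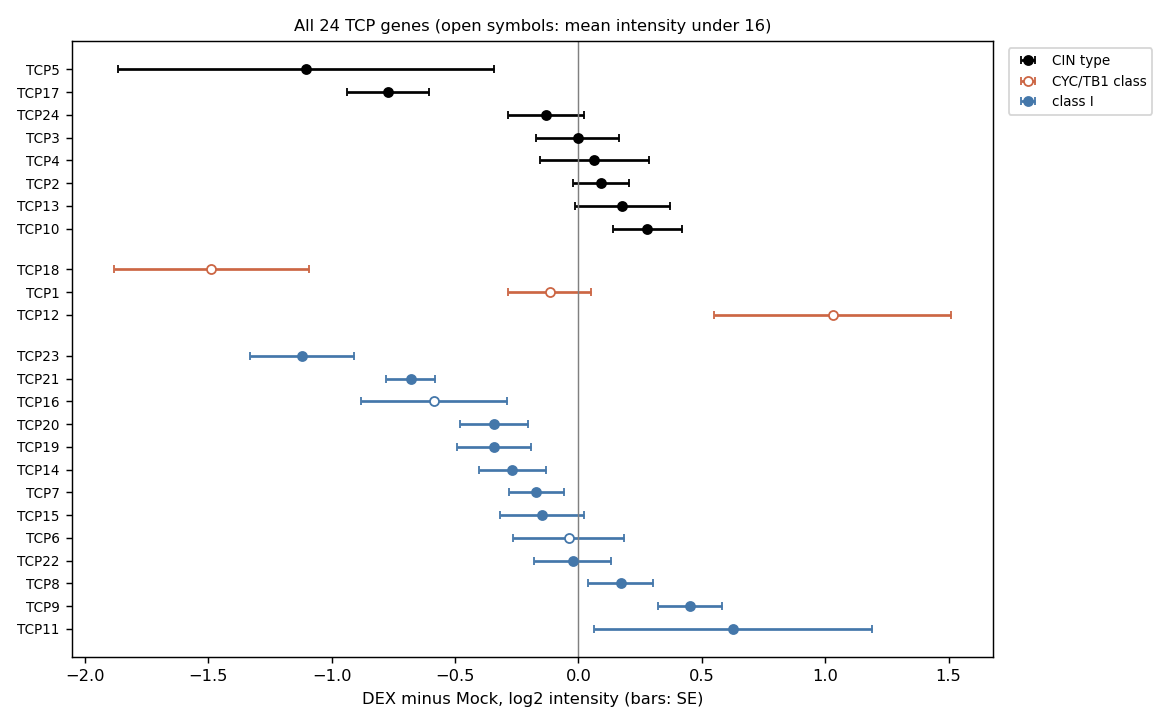
Difference of DEX minus Mock in log2 intensity, with SE, for the 8 CIN-type, 3 CYC/TB1-class and 13 class I TCP genes; open symbols mark genes with a mean intensity under 16. CIN-type genes lie on both sides of 0, class I genes have 10 of 13 below 0 (16018 of 32627 among all genes), and no TCP gene passed the threshold.

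The known regulators and partners of CIN-type TCPs formed a list of 11 genes, with 4 differences below 0 and 7 above. Of these, 1 passed with DEX lower, against 0.049% of all genes, and none passed with DEX higher, against 0.00306%. The list was chosen with earlier results of these data known, so this count is no test of the list. The gene that passed was SPL, also known as SPOROCYTELESS or NOZZLE. SPL binds CIN-type TCP proteins and brings the corepressor TOPLESS (TPL) to them during ovule development. It stood at 318, 342 and 321 in Mock and at 130.1, 139.95 and 133 in DEX, so the groups were widely separated. The difference was -1.28 (SE 0.10, limma adjusted p = 0.0470). This call ended with any 1 of the 6 arrays left out (limma adjusted p 0.178 to 0.194). It also ended with the replicate number as a block (limma adjusted p = 0.299). Those settings called 0 of all genes. Centring each array on its median ended the call as well (limma adjusted p = 0.0508). SPL passed by more with the prior that follows intensity (limma adjusted p = 0.000121) and with 16 added (limma adjusted p = 0.00249). The same held without genes dimmer than the median (limma adjusted p = 0.00055). The difference stayed between -1.31 and -1.19.

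The other partners did not pass. TPL itself was at 0.00 (SE 0.10), from a bright mean intensity of 1380. AS2, a leaf polarity factor that binds CIN-type TCPs, was at -0.32 (SE 0.12) by its brightest feature. There all DEX arrays were below all Mock arrays, as for 9.2% of all genes. With the mean of its 4 features AS2 was at 0.40, so its direction depended on the feature. The loci of the miR319 precursors were near the bottom of the scale: MIR319A lay between 0.848 and 2.44, MIR319B between 0.998 and 6.02 and MIR319C between 2.80 and 13.0. Their differences of 0.94 (SE 0.36), -0.55 (SE 0.65) and 1.03 (SE 0.45) shrank to 0.08, -0.10 and 0.31 with 16 added, and none passed. Mature miR319 was not measured here. RBE, a petal zinc-finger protein reported to repress TCP4, was at intensities of 2.23 to 6.39, with a difference of 0.28 (SE 0.42).

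Genes reported downstream of CIN-type TCPs numbered 29, of which 28 had values, and none passed. Of the 28, 16 were below 0 and 12 above, with a median of -0.05. LOX2, the jasmonate synthesis enzyme that TCP4 activates in leaves, was bright and level: 2174, 2543 and 1744 in Mock against 2447, 2178 and 1856 in DEX, a difference of 0.01 (SE 0.19). The boundary genes CUC1, CUC2 and CUC3, which CIN-type TCPs hold down, gave -0.37 (SE 0.13), -0.06 (SE 0.16) and 1.05 (SE 0.17).

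CUC3 was at 215, 198 and 145 in Mock and at 387, 377 and 375 in DEX, the clearest separation of the list (limma adjusted p = 0.148). It passed with the prior that follows intensity (limma adjusted p = 0.00240) and with 16 added to each intensity (limma adjusted p = 0.0453). These settings called more of all genes, 1.32% and 0.625%. CUC3 did not pass without the dimmest 25% of genes (limma adjusted p = 0.0805). Nor did it with the replicate number as a block (limma adjusted p = 0.319) or any 1 array left out (limma adjusted p 0.241 to 0.349), where 0 genes were called. The other examples were CO, a flowering-time regulator, at -1.02 (SE 0.22), the cell-cycle inhibitor KRP1 at 0.74 (SE 0.21) and the homeodomain gene BLH4 at -0.66 (SE 0.19). The CO value is from the brighter of 2 features, and with the mean of both it was -0.28.

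**Figure D5:**
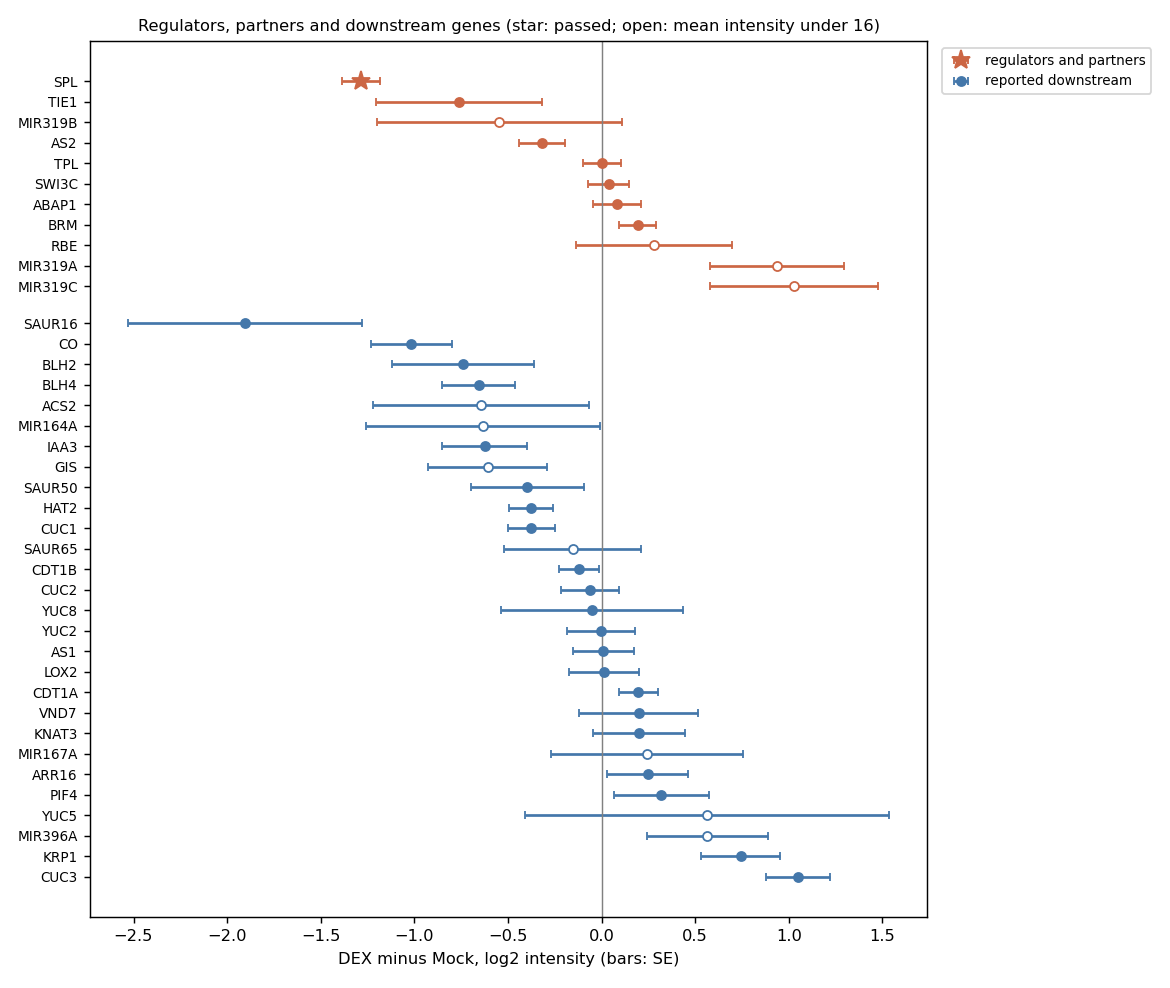
Difference of DEX minus Mock in log2 intensity, with SE, for the 11 regulators and partners and the 28 measured downstream genes; open symbols mark a mean intensity under 16 and the star a gene past the threshold. SPL, at -1.28, carries the single star, and the downstream genes spread from -1.90 to 1.05 with none past the threshold.

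Genes whose profile over the 6 arrays lay closest to that of TCP17 were sought among the 16313 genes brighter than the median gene, by the root-mean-square difference of log2 values after centring each gene on its mean. The nearest were AT3G48450 (0.07), the light-harvesting gene LHCB4.3 (0.09) and AT3G06035 (0.10), against a root-mean-square deviation of 0.42 for TCP17 around its own mean. Their differences were -0.79 (SE 0.20), -0.67 (SE 0.14) and -0.68 (SE 0.17). The nearest to TCP10 were AT3G52660 (0.03), EDS16 (0.03), a salicylic acid synthesis gene, and EMB1444 (0.04), with differences of 0.25 (SE 0.14), 0.26 (SE 0.14) and 0.23 (SE 0.15). With 6 arrays and this many genes, close matches are easily found, and they are given as a description.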

How the data were processed

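The authors deposited RMA intensity values on a linear scale for 6 NimbleGen arrays (Cy3), as the submitters' processing notes name RMA and the values exceed any log range. Not given in the sources used here are the RMA version, the background step and the probe design. Of 39640 rows, 2522 held no value. Intensities were log2-transformed without a pseudocount or a dim-gene filter, and the feature with the highest mean log2 value stood for its locus (32627 loci, of which 31993 matched the RefSeq table of TAIR10.1). Of 12 rows for the 8 members, 2 held no value.

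DEX was compared with Mock with limma 3.58.1 in R 4.3.3 (lmFit, eBayes, two-sided, Benjamini-Hochberg over all genes, threshold 0.05). SE and 95% intervals come from that fit. The fit was also run on simulated data with known changes, drawn without any effect shared by an array. That run does not show how the fit performs on these data. SUP and the members were also tested by exact permutation (two-sided, 20 relabelings). Array medians were 74.2 to 77.3. Arrays give no read depth, so their number limits precision, and since no source ties replicates to separate plants, the p-values reflect the spread among these arrays alone, which may be technical. The main fit used the group alone, without pairs. Deviations of same-numbered arrays from their group means correlated weakly (0.028 to 0.063), though above those of differently numbered arrays (-0.061 to 0.004). A fit with the replicate number as a block is in the closing section.

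Members and lists were chosen with earlier results of these data known. The text names every member, SUP, the miR319 loci, RBE, SPL, LOX2 and the CUC genes, and otherwise the called genes and up to 4 smallest p of each list; TPL, CRA1, AP3 and AG were added after their values were seen. The alternatives tried are in the closing section.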

Additional observations from a re-analysis of the deposited data

How the results depend on the processing

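No setting called a CIN-type TCP gene at an adjusted p of 0.05 or 0.1; at an unadjusted p under 0.05 there was 1, TCP17. The count over all genes moved far more. Against 17, it was 0 with the replicate block, 431 with the trended and robust prior, 204 with 16 added, 105 without the dimmest 25% of genes, 282 without genes dimmer than the median, 96 at an adjusted p of 0.1 and 3401 at an unadjusted p of 0.05. It was 0 with any array left out (limma, where 2806 to 3372 genes had an unadjusted p under 0.05). Leaving out an array together with the trended and robust prior, a combination added after seeing the data, gave 244, 314 and 260 without Mock replicates 1, 2 and 3 and 303, 226 and 307 without the DEX ones. The replicate block ended the SPL call and no member was called with it. Between the groups, each array's deviations from its group mean correlated best with those of the same-numbered array, though weakly (0.028 to 0.063). TCP5 and TCP17 were dimmer than the median and were not tested in that filter.

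TCP17 stayed between -0.77 and -0.60 over 10 settings and between -0.90 and -0.68 with an array left out. Most of those settings could not move its difference, since they change only the variance, the genes tested or the choice of feature. It was -0.60 with 16 added, -0.74 with quantile normalization, -0.74 with median centring and -0.75 with array weights. TCP3 changed sign with quantile normalization (0.0019) and median centring (0.028), and ranged from -0.17 to 0.093 with an array left out. TCP4 changed sign with the mean of both features (-0.018) and ranged from -0.11 to 0.18 with an array left out. With the mean of all features AS2 was at 0.40 and SEP3 at 0.085, while CO moved to -0.28, TCP1 to -0.58, TCP18 to -0.82 and EDS16 to 0.081. With an array left out, MIR319B ranged from -1.15 to 0.15, LOX2 from -0.13 to 0.14, CUC2 from -0.17 to 0.058, RBE from -0.17 to 0.53 and SESA1 from -1.17 to 0.28. The cause of these changes was not tested.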

Other observations

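The protein-coding genes next to each member in the RefSeq order, chosen after the data were seen, were also read. All 16 had values and none passed (limma). TCP17 lay between AT5G08060 at 0.06 (SE 0.11) and SYP132 at 0.14 (SE 0.13). TCP10 had the neighbours EMB2785 at 0.06 (SE 0.15) and CLE4 at -0.62 (SE 0.39), the latter at a mean intensity of 2.81. TCP5 had AT5G60964 at -0.55 (SE 0.92), also dim, and AT5G60980 at -0.08 (SE 0.11). Over all 16 the differences ran from -0.62 to 0.64.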
